A study of Mus musculus with 24 samples.

Results

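Oxidative phosphorylation subunits are the proteins that make up complexes I to V of the mitochondrial respiratory chain. Those encoded by nuclear genes were followed here in the livers of hypothyroid mice 6 h after an injection of the thyroid hormone T3. The subunits encoded by mitochondrial DNA fall outside the rule below. The genes were chosen by symbol: the Nduf A, B, C, S and V series for complex I, Sdha to Sdhd for complex II, the Uqcr series for complex III, Cox4 to Cox8 for complex IV and the Atp5 series for complex V. Complexes were assigned by symbol alone and not by where a protein is found, so Ndufa4 and Ndufa4l2 count in complex I. Of the 18194 genes that the array named by a single symbol, 81 matched, with 35 in complex I, 4 in complex II, 8 in complex III, 17 in complex IV and 17 in complex V. All 81 also matched a RefSeq gene. Each was read by its brightest probe set, and 33 had only 1 probe set. A filter on low signal kept 79 of them among 14162 genes tested. Ndufb4, a complex I subunit, and Cox7b2, a testis isoform of a complex IV subunit, did not pass it. The array has 2 brighter probe sets for Ndufb4 that also match its near-copies Ndufb4b and Ndufb4c, so these were not used, and the value given for Ndufb4 rests on a dim probe set.

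Complex I takes electrons from NADH and complex II, the succinate dehydrogenase of the citric acid cycle, takes them from succinate. Both pass them through ubiquinone to complex III, cytochrome c and the oxygen-reducing complex IV, and complex V, the ATP synthase, uses the proton gradient that complexes I, III and IV build. Thyroid hormone has long been known to raise respiration in liver, and T3 acts there largely through the nuclear receptor TRβ, which binds DNA as a dimer with a retinoid X receptor. The coactivators of the PGC-1 family and the factors NRF1, GABP and ERRα are the known regulators of many subunit genes.

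The study used 24 arrays of liver RNA in 8 groups of 3, 4 genotypes each with T3 or with PBS, and each array was taken as a separate male mouse because its title number differed from all others. WT mice on a C57BL/6J background, KO mice, which lack TRβ, and GS mice, whose TRβ carries the changes E125G and G126S, were 8 to 9 weeks old and were made hypothyroid for 3 weeks with an iodine-poor diet and 0.02% methimazole, 0.5% perchlorate and 0.3% saccharin in the water. Mice with TRβ Y147F on a C57BL/6JCrl background belong to a later submission, were 10 to 11 weeks old and drank 0.05% methimazole and 1% perchlorate for 3 weeks. A single T3 dose was given, stated as 20 µg per 100 g for WT, KO and GS and as 200 ng per g for Y147F, and mice of all 8 groups had been made hypothyroid beforehand. No WT arrays of the later submission were analysed here, so that for every comparison of Y147F with WT the genotype, the submission, the age and the drug doses cannot be told apart. The arrays measured whole liver, in which fewer cells of a type and less RNA per cell cannot be told apart.

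Values are log2 intensities, differences are log2 differences ± SE from 1 limma model of all 24 arrays with n = 3 per group, and a gene was called at an adjusted p under 0.05 over all genes tested. Hepatocyte markers such as Alb were bright on every array, with Alb between 15.12 and 15.21. Dio1, a T3 target gene, was called higher with T3 in every genotype. The difference was 6.63 ± 0.28 for WT, 1.82 ± 0.28 for KO, 2.52 ± 0.28 for GS and 7.52 ± 0.28 for Y147F. The Thrb probe set, at 6.38 to 7.01 in WT and 6.82 to 7.25 in KO, did not separate the genotypes, and it does not check the label KO, since the position of its probes in the gene is not known here. In the Y147F columns the decimal mark had to be restored and 8 cells of 7 of the 81 genes were left missing, those of Atp5g2, Atp5j2, Ndufb3, Ndufb4, Ndufb7, Ndufv3 and Uqcr11. The fit used the arrays that were left.

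The subunit genes gave bright signals. 69 of 81 lay at or above 11 as a mean over all arrays, a level reached by 8.56% of all genes with a single symbol (1558 of 18194). Signals of different probe sets depend on their probes as well as on the RNA, so their order is no order of transcript amounts. All 4 genes of complex II, all 8 of complex III and all 17 of complex V were in this bright class, and so were 31 of 35 in complex I. In complex IV 9 of 17 were, and 7 of the other 8 lay under 8. The highest means were those of Uqcrb (14.45), a small subunit of complex III, Cox6a1 (14.25), the isoform of complex IV subunit VIa found outside muscle, and Atp5g3 (13.89), 1 of the genes of the subunit c ring of the ATP synthase. The lowest were Cox6b2 (5.42), Ndufb4 (4.62) and Cox7b2 (3.87), beside array medians over all probe sets of 5.88 to 6.00.

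**Figure D1:**
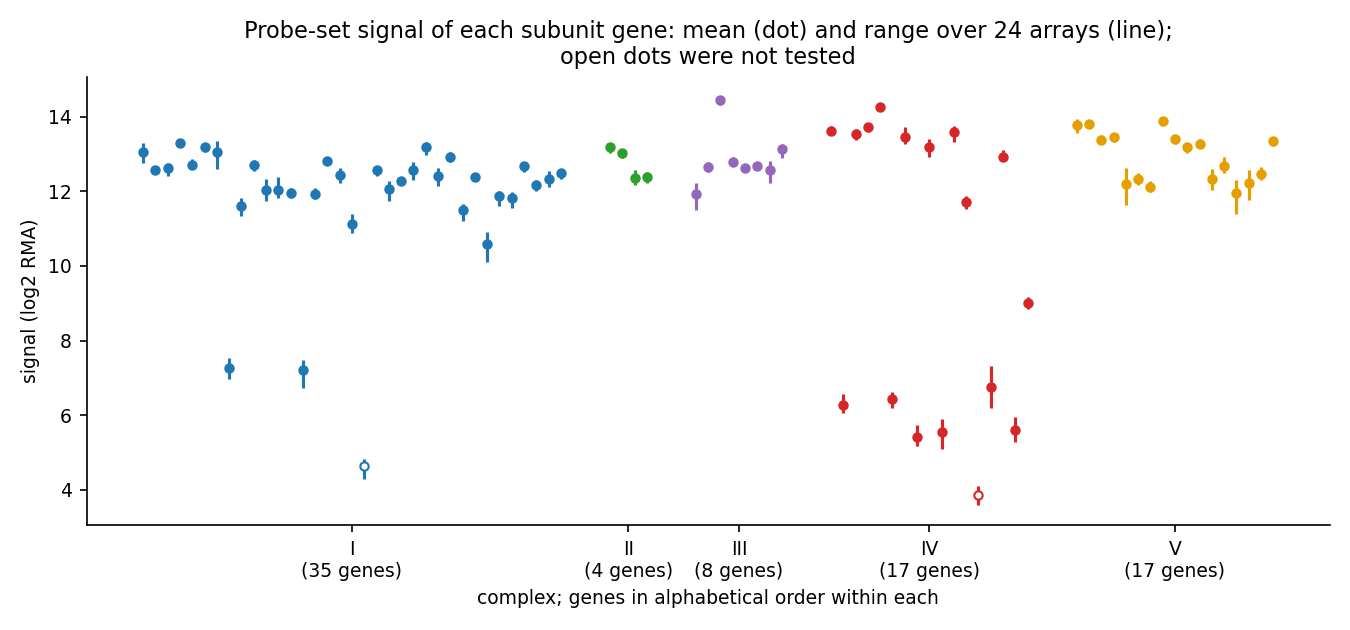
Probe-set signal (log2) of the 81 subunit genes by complex, in alphabetical order within each. Dots are means and lines the range over 24 arrays. Open dots, Ndufb4 and Cox7b2, were not tested. Most genes lie above 11, and complex IV holds 7 of the 10 under 8.

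The isoforms known mainly from muscle, lung, testis or hypoxic cells were dim or moderate in these livers. Cox4i2, the lung-type and hypoxia-responsive form of subunit IV, lay at 6.28, Cox6a2 at 6.43, Cox7a1 at 5.54 and Cox8b at 5.61, the last 3 being heart and skeletal muscle forms. Ndufa4l2, a hypoxia-induced relative of Ndufa4, lay at 7.26. Among the forms known from testis, Cox6b2 and Cox7b2 were at the low end, whereas Cox8c stood at 9.02 (8.84 to 9.16 over all arrays). Cox7c and Ndufb1, which are not tissue-restricted, also had dim probe sets, at 6.76 and 7.21, so their results below rest on lower signals than those of most subunits. Whether these probe sets read the main transcript of either gene was not tested. Of 4 skeletal muscle markers, Ckm and Acta1 stayed between 6.00 and 6.60 on every array, and Myh4 and Tnnt3 did not pass the filter. Myh4 nevertheless reached 5.27 on WT T3 replicate 2 and had group means of 4.44 in WT T3 and 3.846 to 3.998 elsewhere.

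Levels differed little between the 8 groups. The range from the lowest to the highest group mean of a gene had a median of 0.21 over the 81 genes, from 0.069 to 0.73, against a median SD of 0.057 between arrays of a group. Arrays of a group also moved together: the first component of the genes' residuals from their group means, each scaled to unit length, held 35.9% of the residual variance over the 73 tested subunit genes with no missing cell, and 13.9% over the 13930 such genes in all. The genes are therefore not independent readings of an array. The mean of the 73 genes on single arrays shows how this looks. In WT the PBS arrays were at 11.91, 11.97 and 11.98 and the T3 arrays at 12.01, 12.00 and 12.05. In KO they were at 11.95, 11.96 and 11.98 with PBS and at 12.07, 12.00 and 12.01 with T3. In GS the PBS arrays were at 11.94, 12.00 and 11.98 and the T3 arrays at 12.00, 12.09 and 12.03. The Y147F arrays lay at 11.87, 11.86 and 11.86 with PBS and at 12.00, 11.95 and 11.95 with T3. The T3 arrays stood above the PBS arrays of the same genotype in WT, KO and Y147F, while in GS the lowest T3 array (12.001) lay just under the highest PBS array (12.003).

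**Figure D2:**
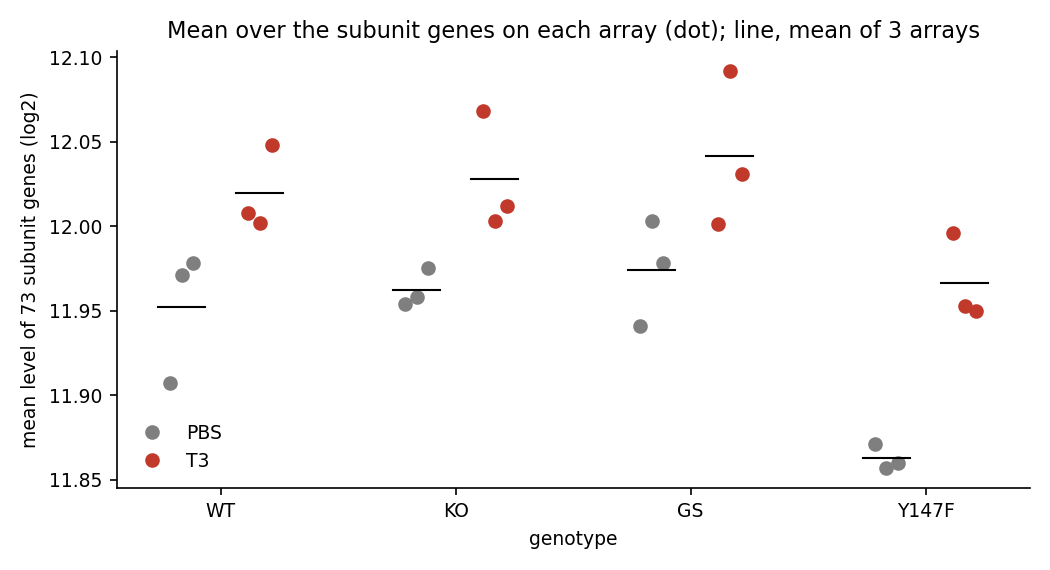
Mean log2 level of the 73 tested subunit genes with no missing cell on each array (dots; grey PBS, red T3), with the mean of the 3 arrays as a line, by genotype. T3 arrays lie above PBS arrays except for an overlap in GS (12.001 against 12.003), and the lowest values are the Y147F PBS arrays, 11.857 to 11.871. The vertical axis does not start at 0 because values are log2.

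T3 against PBS in WT asked whether the subunit genes follow the hormone within 6 h. Only Ndufb1, a supernumerary subunit of the membrane arm of complex I, was called, and it rose by 0.29 ± 0.089. That is 1 of 79 subunit genes, or 1.27%, where 10.6% of all genes tested were called, 5.73% higher and 4.9% lower. No subunit gene was called lower. The differences of the 79 genes were small and mostly above 0: the median was 0.064, 62 were above 0 and 17 below, and they ran from -0.18 to 0.39. The median over all genes tested was -0.033, and over the 1489 other tested genes at or above 11 it was -0.011. For 77 of the 79 the 95% interval of the difference lay within a 1.5-fold change either way and the exceptions were Cox7a1 and Cox7c.

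Values of single arrays are given in the order of replicates 1 to 3. Ndufb1 stood at 6.97, 7.21 and 7.11 with PBS and 7.39, 7.49 and 7.27 with T3 in WT, so the groups did not overlap (adjusted p = 0.0398). The call was lost without WT T3 replicate 1 or 2, with adjusted p of 0.0930 and 0.183, and without WT PBS replicate 1 or 3, with 0.191 and 0.0794. It was also lost without the filter (0.0517) and with only the WT arrays in the fit (0.0923). Cox7a1, the muscle form of complex IV subunit VIIa, had the largest difference in WT, 0.39 ± 0.13, from 5.22, 5.09 and 5.50 with PBS to 5.54, 5.62 and 5.83 with T3. Its arrays did not overlap either, but its adjusted p was 0.0590. The Cox7a1 signal lay under the array median on every array. On WT PBS replicates 1 and 2 it was also under the 40th percentile used in the filter, 5.45 and 5.43. The mean of the 4 muscle markers was 5.25, 5.35 and 5.30 on the WT PBS arrays and 5.35, 5.70 and 5.27 on the WT T3 arrays. It was highest on T3 replicate 2, whereas Cox7a1 was highest on T3 replicate 3, and the part of muscle RNA in the Cox7a1 difference was not tested. Ndufa5, a supernumerary subunit of the matrix arm of complex I, went from 11.33, 11.49 and 11.59 to 11.62, 11.66 and 11.78, a difference of 0.21 ± 0.071 with an adjusted p of 0.0602. Sdhd, a membrane anchor of complex II, went from 12.28, 12.37 and 12.34 to 12.49, 12.48 and 12.50, a difference of 0.16 ± 0.058 with an adjusted p of 0.0844. In none of these 4 genes did the WT arrays of the treatments overlap, and 3 of the 4 missed the threshold. Without WT PBS replicate 3, Cox7a1, Ndufa5 and Ndufb3 were called and Ndufb1 was not.

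Promoters of these 4 genes are printed because they had the smallest p for T3 in WT, and that of Ndufa1 because it was the gene called in both KO and GS below, a choice made after its values were seen. Each holds 250 bases before a listed start of the gene and 50 from that start on, in RefSeq, build GRCm38.p6, 5′ to 3′ on the gene's strand. Capitals mark matches to 6 motifs, searched on both strands: AGGTCA, the hexamer of thyroid hormone and related receptors, which is also part of the next 2; a pair of AGGTCA in the same direction 4 bases apart, the classical thyroid hormone response element; TCAAGGTCA, bound by ERRα; GCATGCGC, the NRF1 core; CCGGAAG, bound by GABP and other ETS factors; and GGGCGG, bound by SP1. For Ndufa5 the printed start lies inside the gene as RefSeq bounds it. Its other listed start, not printed, is the gene's first base.
Ndufb1, chr12:101975689-101975988, minus strand: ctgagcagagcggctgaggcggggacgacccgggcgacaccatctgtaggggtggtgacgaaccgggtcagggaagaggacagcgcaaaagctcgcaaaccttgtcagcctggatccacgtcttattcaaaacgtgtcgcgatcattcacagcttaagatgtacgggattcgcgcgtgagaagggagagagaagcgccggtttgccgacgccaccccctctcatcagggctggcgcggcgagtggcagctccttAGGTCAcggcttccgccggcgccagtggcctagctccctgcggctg
Cox7a1, chr7:30183921-30184220, plus strand: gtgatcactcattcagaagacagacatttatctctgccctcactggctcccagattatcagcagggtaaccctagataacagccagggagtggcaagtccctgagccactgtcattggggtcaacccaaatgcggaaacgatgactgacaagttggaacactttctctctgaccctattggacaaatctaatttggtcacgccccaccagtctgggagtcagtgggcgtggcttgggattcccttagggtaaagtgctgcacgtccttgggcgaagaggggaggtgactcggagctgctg
Ndufa5, chr6:24527477-24527776, minus strand: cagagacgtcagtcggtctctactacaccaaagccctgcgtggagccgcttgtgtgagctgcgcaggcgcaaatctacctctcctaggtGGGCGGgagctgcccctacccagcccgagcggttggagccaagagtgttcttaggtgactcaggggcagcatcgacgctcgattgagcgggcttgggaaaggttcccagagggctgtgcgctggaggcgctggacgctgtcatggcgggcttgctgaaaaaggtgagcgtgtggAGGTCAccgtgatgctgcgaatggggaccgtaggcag
Sdhd, chr9:50603800-50604099, minus strand: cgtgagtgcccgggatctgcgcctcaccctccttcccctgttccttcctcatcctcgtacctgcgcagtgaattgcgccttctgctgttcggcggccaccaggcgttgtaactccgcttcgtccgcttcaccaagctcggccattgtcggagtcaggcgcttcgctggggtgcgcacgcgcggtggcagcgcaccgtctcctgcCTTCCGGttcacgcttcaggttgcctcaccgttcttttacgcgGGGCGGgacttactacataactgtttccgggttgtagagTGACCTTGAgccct
Ndufa1, chrX:37191189-37191488, minus strand: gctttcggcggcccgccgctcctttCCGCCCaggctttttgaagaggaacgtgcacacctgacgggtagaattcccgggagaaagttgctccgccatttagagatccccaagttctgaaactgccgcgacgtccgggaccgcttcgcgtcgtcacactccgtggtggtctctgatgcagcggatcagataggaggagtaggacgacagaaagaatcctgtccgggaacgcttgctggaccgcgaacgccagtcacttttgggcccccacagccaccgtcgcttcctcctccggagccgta
Ndufb1 holds an AGGTCA at bases 4 to 9, counted from 0 at the listed start, and no other motif. In the printed window Ndufa5 holds an AGGTCA at bases 13 to 18 and a GGGCGG before that start. The window at the gene's first base holds a GGGCGG at bases 3 to 8 and no AGGTCA. Sdhd holds the ERRα motif, with the hexamer inside it, on the opposite strand at bases 36 to 44, and single GABP and SP1 motifs. Ndufa1 holds an SP1 motif and Cox7a1 none of the 6. Over all 66 subunit genes with a promoter in the table, the share with a motif in at least 1 promoter was 13.6% for the NRF1 core against 3.05% of all 27025 genes in it, 25.8% against 9.93% for CCGGAAG, 3.03% against 0.466% for the ERRα motif, 42.4% against 38.2% for GGGCGG and 22.7% against 18.1% for AGGTCA. The spaced pair was in 0 of 66 and in 4 of all genes (0.0148%). The 27025 genes were not matched to the subunit genes in signal, base composition or number of listed starts, and the shares were not tested. A match describes these letters in this window and is no measured site.

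In KO, T3 changed no subunit gene past the threshold: 0 of 79 were called by limma with 0.177% of all genes tested called, and 6 (7.59%) had an unadjusted p under 0.05, as did 10.4% of all genes. The differences were again small and above 0 for 69 of 79, with a median of 0.072, a range of -0.050 to 0.17 and a median over all genes of -0.0095. All 79 intervals lay within a 1.5-fold change. The smallest p belonged to Ndufb10, a supernumerary complex I subunit, with PBS arrays at 11.83, 11.79 and 11.79 and T3 arrays at 12.02, 11.93 and 11.94. Those groups did not overlap, and the difference of 0.16 ± 0.054 had an adjusted p of 0.274. Ndufa12, also supernumerary, differed by 0.16 ± 0.062, and Atp5g1, another subunit c gene, by 0.14 ± 0.059, with adjusted p of 0.374 and 0.418.

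In GS no subunit gene was called either. 0.148% of all genes tested were called, and 4 of 79 (5.06%) had an unadjusted p under 0.05, as did 7.0% of all genes. The median difference was 0.061, 68 of 79 were above 0, the range was -0.074 to 0.27, and the median over all genes was 0.0045. All 79 intervals lay within a 1.5-fold change here too. Sdhd had the smallest p, with 12.38, 12.39 and 12.26 with PBS and 12.48, 12.52 and 12.47 with T3, a difference of 0.15 ± 0.058 between groups that did not overlap. Ndufv2, a subunit of complex I with a binuclear iron-sulphur cluster, differed by 0.14 ± 0.061 and Cox4i1, the main form of complex IV subunit IV, by 0.11 ± 0.052. The adjusted p of these 3 were between 0.624 and 0.693.

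In Y147F, 5 subunit genes rose with T3 and none fell among the 79 tested. They were Ndufb1, Ndufs4 and Ndufa5 of complex I, Cox7c of complex IV and Atp5k of complex V. Across all genes tested 11.6% were called, 5.52% higher and 6.09% lower, so the share of subunit genes called, 6.33%, was below that of all genes. The median difference was 0.083 against -0.0052 over all genes, 67 of 79 were above 0, and 21 (26.6%) had an unadjusted p under 0.05, as did 24.5% of all genes. The range was -0.14 to 0.62, and 77 of the 79 intervals lay within a 1.5-fold change. Without Y147F T3 replicate 1 only 2 were called, Ndufa5 and Ndufb1, and without replicate 3 of that group 6 were.

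Ndufb1 rose by 0.39 ± 0.089, from 6.72, 6.85 and 7.04 with PBS to 7.39, 7.15 and 7.25 with T3 (adjusted p = 0.00554). It was called whichever array was left out, but not with only the Y147F arrays in the fit (0.0739). Ndufs4, a late-assembled supernumerary subunit of complex I, rose by 0.38 ± 0.10. Its arrays were at 10.17, 10.22 and 10.10 with PBS and 10.68, 10.47 and 10.47 with T3 (adjusted p = 0.0161), and without Y147F PBS replicate 3 or T3 replicate 1 the adjusted p was 0.0619 and 0.102. Neither gene's arrays overlapped between treatments. For Ndufs4 the second probe set gave 0.36, another 0.24, and the dimmest, at 4.03, gave 0.016.

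Cox7c, a small nuclear-encoded subunit of complex IV, had the largest rise of any subunit gene, 0.62 ± 0.18, a 1.54-fold change. With PBS it stood at 6.19, 6.78 and 6.51 and with T3 at 7.18, 7.18 and 6.99 (adjusted p = 0.0237), and its second probe set, at 4.71, differed by 0.40. It missed the threshold without PBS replicate 1 or 3 (adjusted p = 0.125 and 0.0552) and without T3 replicate 1 or 2 (0.0843 and 0.0758). Atp5k, subunit e of the ATP synthase, rose by 0.30 ± 0.088, from 12.06, 12.04 and 12.04 to 12.55, 12.27 and 12.22 (adjusted p = 0.0297). T3 replicate 1 was the highest of the 3, and without it the adjusted p was 0.198. Without PBS replicate 1, 2 or 3 it was 0.0588, 0.0734 and 0.0729. The other 2 probe sets of Atp5k gave 0.28 and 0.27. Ndufa5 rose by 0.24 ± 0.071, from 11.54, 11.40 and 11.51 to 11.63, 11.70 and 11.82 (adjusted p = 0.0350), and missed the threshold without PBS replicate 2 or 3 (0.138 and 0.0575) or T3 replicate 2 or 3 (0.0699 and 0.134). With only the Y147F arrays in the fit, Atp5k and Ndufa5 were not called (0.139 and 0.173). In none of these 3 genes did the arrays of the treatments overlap.

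**Figure D3:**
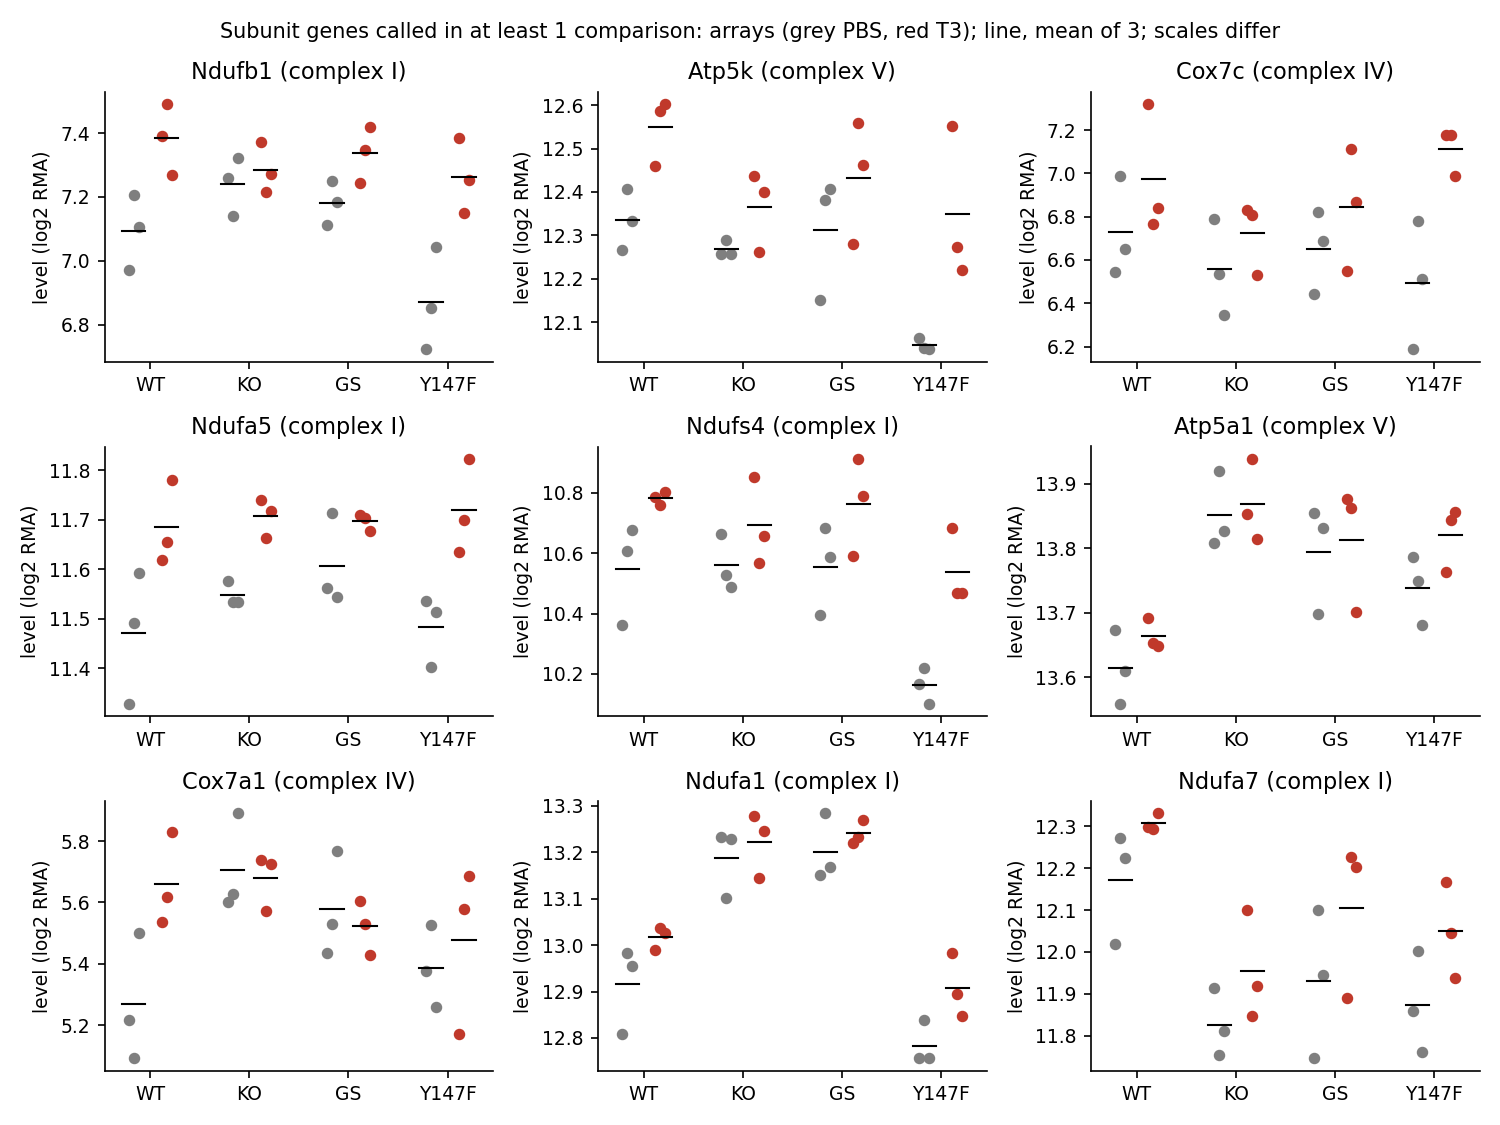
Log2 level on every array of the 9 subunit genes called in at least 1 comparison, by genotype, with PBS in grey, T3 in red and the mean of 3 arrays as a line. The vertical scales differ between panels and do not start at 0. T3 arrays lie above PBS arrays in Y147F for Ndufb1, Atp5k, Cox7c, Ndufa5 and Ndufs4, and Ndufa1 is higher in KO and GS than in WT with either treatment.

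The responses can be read by complex. Complex I, with 34 genes tested, had median T3 differences of 0.087 in WT, 0.085 in KO, 0.058 in GS and 0.12 in Y147F, and 30, 33, 31 and 29 of the 34 were above 0. Its 6 core subunits, the catalytic part that is conserved in bacteria, had medians of 0.075, 0.044, 0.041 and 0.070, and the 28 supernumerary ones of 0.097, 0.091, 0.070 and 0.12. The 4 called complex I results for T3 (Ndufb1 in WT and Y147F, Ndufs4 and Ndufa5 in Y147F) all belonged to supernumerary subunits. So did 28 of the 34 genes tested, and no difference between core and supernumerary subunits can be read from these calls. Complex III, with 8 genes, had medians of 0.050, 0.070, 0.064 and 0.11, and no gene was called in any genotype, although 3 had an unadjusted p under 0.05 in Y147F. Complex V, with 17 genes, had medians of 0.059, 0.083, 0.070 and 0.068, and 13, 17, 15 and 16 of the 17 were above 0. Complex IV had 10, 9, 12 and 13 of its 16 tested genes above 0 and medians of 0.0092, 0.026, 0.074 and 0.056. The 7 tested isoforms that are restricted to other tissues or to hypoxia, most of them of complex IV, had 3, 0, 4 and 4 above 0 in WT, KO, GS and Y147F.

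Complex II showed no common direction. The flavoprotein gene Sdha differed by -0.071, -0.026, 0.0093 and 0.019 in WT, KO, GS and Y147F. The iron-sulphur subunit gene Sdhb differed by 0.068, 0.096, -0.0039 and -0.012. Sdhc, a membrane anchor, differed by -0.028, 0.078, -0.0051 and -0.082. Sdhd was above 0 in all 4, with 0.16, 0.11, 0.15 and 0.074. None of these 16 differences was called.

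**Figure D4:**
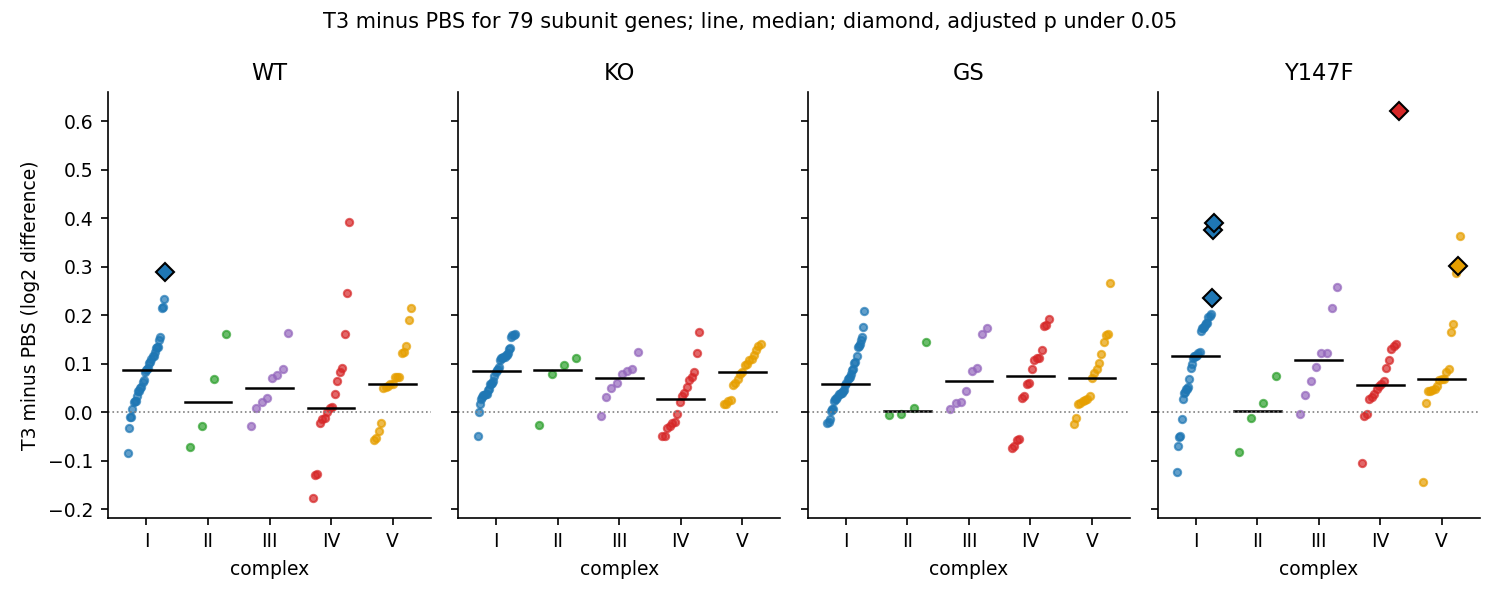
Log2 difference T3 minus PBS of the 79 tested subunit genes by complex, 1 panel per genotype; horizontal lines are medians and diamonds mark genes with an adjusted p under 0.05. Most points lie between 0 and 0.2 in every genotype, and the 6 diamonds are Ndufb1 in WT and 5 genes in Y147F.

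The sign of the T3 difference was also compared between genotypes. Of the 79 genes, 48 were above 0 in all 4 genotypes, 18 in 3 of 4, and 0 were below 0 in all 4. 68 differed by under 0.2 in every genotype and 0 by 2-fold in any. The same counts were not made over all genes tested, so whether they are particular to the subunit genes was not tested. Every T3 array lay above every PBS array for 23 genes in WT, 24 in KO, 8 in GS and 34 in Y147F. Among all genes tested this held for 12.5%, 7%, 7.31% and 12%. Every T3 array lay below every PBS array for 1 subunit gene in WT, 0 in KO, 0 in GS and 2 in Y147F, against 17%, 8.18%, 5.8% and 14% of all genes. Because genes of an array move together, these counts hold fewer independent readings than genes.

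Whether the response differed between genotypes was tested as T3 response minus that of WT, in comparisons that all share the 6 WT arrays. None of the 79 subunit genes was called for KO minus WT, GS minus WT or Y147F minus WT. Over all genes tested the called shares were 3.09%, 2.92% and 0%. Unadjusted p under 0.05 were found for 1, 2 and 0 subunit genes, or 1.27%, 2.53% and 0%, and for 12.5%, 13.6% and 5.34% of all genes. The medians of the subunit genes were 0.010, -0.0053 and 0.040, beside 0.018, 0.033 and 0.0076 over all genes. Intervals within a 1.5-fold change either way were found for 77, 77 and 76 of the 79.

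Cox7a1 came first in both mutants of the first submission, with a response that differed from that in WT by -0.42 ± 0.18 in KO (95% interval -0.80 to -0.038, adjusted p = 0.325) and by -0.45 ± 0.18 in GS (-0.83 to -0.065, adjusted p = 0.270). In Y147F its response was also below that of WT, at -0.30 ± 0.18 with an interval of -0.68 to 0.081. All of these use the low WT PBS signals of Cox7a1 given above. For KO the next were Ndufb1 (-0.24 ± 0.13) and Atp5pb, subunit b of the ATP synthase stalk (0.15 ± 0.081). For GS they were Cox4i2 (0.35 ± 0.15) and Cox5a, a matrix-facing subunit of complex IV (-0.16 ± 0.091). For Y147F, Cox8c (0.19 ± 0.11) and Uqcr11, a small subunit of complex III (0.15 ± 0.092), stood beside Cox7a1, and Uqcr11 lacked 1 Y147F T3 array. None of these was called. The intervals of Cox7a1 in KO and GS and of Cox4i2 in GS, 0.046 to 0.66, left out 0.

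Without T3, KO mice differed from WT mice in 4 subunit genes, of which 3 were higher and 1 lower. Over all genes tested 6.87% were called, 3.76% higher and 3.11% lower, and 4 of 79 is 5.06%. The median over the 79 genes was -0.016, with 34 above and 45 below 0. Ndufa1, an X-linked subunit needed to build the membrane arm of complex I, was higher by 0.27 ± 0.063, with 12.81, 12.98 and 12.96 in WT PBS and 13.23, 13.10 and 13.23 in KO PBS (adjusted p = 0.0105). It missed the threshold without WT PBS replicate 1 or KO PBS replicate 3, with adjusted p of 0.0614 and 0.0544, and with only the PBS arrays of KO and WT in the fit (0.126). In GS PBS, Ndufa1 stood at 13.15, 13.28 and 13.17 and was higher than in the same WT arrays by 0.29 ± 0.063 (adjusted p = 0.0133). It missed the threshold without WT PBS replicate 1 or GS PBS replicate 2 (0.0803 and 0.0795) and with only the groups compared (0.138). With T3 its levels were 13.28, 13.15 and 13.25 in KO and 13.22, 13.23 and 13.27 in GS, and 12.99, 13.04 and 13.03 in WT. All 12 KO and GS arrays thus lay above all 6 WT arrays, but the PBS arrays among them are those that gave the calls. KO and GS were not tested against WT with T3, and how many of all genes separate in this way was not counted. In Y147F it lay at 12.76, 12.84 and 12.76 with PBS and 12.98, 12.89 and 12.85 with T3, below or within the WT range. Ndufa1 is read by 1 probe set.

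Atp5a1, the alpha subunit of the catalytic head of the ATP synthase, was higher in KO PBS by 0.24 ± 0.063, with 13.67, 13.56 and 13.61 in WT and 13.81, 13.92 and 13.83 in KO (adjusted p = 0.0246). A second bright probe set gave 0.15 and another, at 7.72, gave 0.0020. In GS the difference was 0.18 ± 0.063 with an adjusted p of 0.147. The KO call was lost without WT PBS replicate 2 or 3 (0.110 and 0.0661) or KO PBS replicate 2 or 3 (0.112 and 0.0584), with averaged probe sets (0.178) and with only the groups compared (0.134). Cox7a1 was higher in KO PBS by 0.44 ± 0.13, at 5.60, 5.63 and 5.89 against 5.22, 5.09 and 5.50 in WT (adjusted p = 0.0456), and Ndufa7, a supernumerary subunit of complex I, was lower, at -0.35 ± 0.10, with 11.91, 11.75 and 11.81 against 12.02, 12.27 and 12.23 (adjusted p = 0.0470). The other 4 probe sets of Ndufa7 gave -0.28 to -0.40. Neither gene's arrays overlapped between KO and WT, and each was called in 1 of the 6 fits that left out an array. The share of all genes without overlap is not given here for KO, GS or Y147F against WT in PBS. A lack of overlap in those comparisons therefore only describes the values. The Cox7a1 call rests on the low WT PBS signals described above. Cox7a1 missed the threshold without WT PBS replicate 1 or 2 (0.123 and 0.210) or KO PBS replicate 1, 2 or 3 (0.0549, 0.0747 and 0.207). Ndufa7 missed it without WT PBS replicate 2 or 3 (0.186 and 0.137) or KO PBS replicate 1, 2 or 3 (0.0546, 0.155 and 0.124). With only the groups compared the adjusted p was 0.114 for Cox7a1 and 0.0896 for Ndufa7, and without the filter 0.0553 and 0.0589. Quantile normalisation and array weights also ended the Cox7a1 call (0.0595 and 0.0512), and averaged probe sets and the fit without Y147F that of Ndufa7 (0.0528 and 0.0581).

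In GS PBS, Ndufa1 was the only subunit gene called, 1 of 79, with 2.95% of all genes called, 1.97% higher and 0.981% lower. The median was 0.0093, with 48 above 0. Cox5a came next, higher by 0.22 ± 0.064 with an adjusted p of 0.0728, at 13.63, 13.62 and 13.59 against 13.37, 13.38 and 13.43 in WT, groups that did not overlap. The comparisons of KO, GS and Y147F with WT share the 3 WT PBS arrays.

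In Y147F PBS, set against WT PBS of the other submission, 0 of 79 subunit genes were called by limma, with 0.0847% of all genes called. 24 subunit genes (30.4%) had an unadjusted p under 0.05, as did 13.8% of all genes, 55 of 79 were below 0, and the median was -0.066 against 0.0093 over all genes and 0.037 over the other genes at or above 11. The largest difference was that of Atp5md, a small membrane subunit of the ATP synthase, at -0.60 ± 0.13 (adjusted p = 0.0782), with 11.80, 12.24 and 12.16 in WT and 11.42, 11.61 and 11.38 in Y147F. Without WT PBS replicate 1, the lowest of its group, the adjusted p was 0.0335. Uqcr10, a small subunit of complex III, differed by -0.35 ± 0.086 and Cox7a2, the form of subunit VIIa found in liver, by -0.30 ± 0.075, with adjusted p of 0.132 and 0.139. Both had every Y147F array below every WT array. The T3 response in Y147F and this comparison share the Y147F PBS arrays. Ndufs4 is an example, with -0.39 ± 0.10 for Y147F minus WT in PBS (adjusted p = 0.144) and 0.38 ± 0.10 for T3 in Y147F.

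Genes that serve the respiratory chain without being its subunits were read from 5 lists, whose called shares stand beside the same 10.6% and 11.6% of all genes in WT and Y147F. Of 41 tested assembly factors of the complexes, 8 rose with T3 in WT and 0 fell, with a median of 0.094. Cox10, which makes haem O for complex IV, rose by 0.68 ± 0.11, and Cox11, which delivers copper to it, by 0.51 ± 0.071. Coa5, an assembly factor of complex IV, rose by 0.50 ± 0.068, and Sdhaf4, of complex II, by 0.59 ± 0.12. Over the mean of its probe sets Cox11 was not called in WT or Y147F (adjusted p = 0.833 and 0.0604). In Y147F 7 rose and 1 fell, with Cox10 at 0.86 ± 0.11, Coa5 at 0.45 ± 0.068, Cox11 at 0.44 ± 0.071 and Foxred1, needed for complex I, at 0.45 ± 0.090. In KO and GS 0 of 41 were called, and 5 and 4 had an unadjusted p under 0.05, to be read here and in the lists that follow against 10.4% and 7.0% of all genes. The Coa5 response differed from that in WT by -0.47 ± 0.096 in KO (adjusted p = 0.00724) and by -0.50 ± 0.096 in GS (adjusted p = 0.00433), and no assembly factor was called for Y147F minus WT. In GS the Cox11 and Cox10 responses also differed from those in WT (adjusted p = 0.00909 and 0.02565). Cox11 missed the threshold with averaged probe sets (0.937). Cox10 kept its call in 3 of 12 fits that left out an array.

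Among 11 genes of cytochrome c, carriers and uncoupling, Gpd2, the mitochondrial glycerol-3-phosphate dehydrogenase that feeds electrons to ubiquinone, rose by 2.38 ± 0.14 in WT and 1.87 ± 0.14 in Y147F. It differed by 0.48 ± 0.14 in KO and in GS, with adjusted p of 0.201 and 0.373. The Gpd2 response differed from that in WT in both, with an adjusted p of 5.74e-06 in each, and was called in every fit run. Cycs, cytochrome c, rose by 0.42 ± 0.072 in Y147F and differed by 0.20 ± 0.072 in WT (adjusted p = 0.0928), 0.14 in KO and -0.0073 in GS. Cyc1, the cytochrome c1 of complex III, whose symbol falls outside the rule for subunits, differed by 0.053, 0.074, 0.041 and 0.12 in WT, KO, GS and Y147F and was not called.

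In the citric acid cycle list of 15 genes, 4 rose in WT and 3 in Y147F, and 0 fell. Idh3a, a subunit of the NAD-linked isocitrate dehydrogenase, rose by 2.21 ± 0.11 and 2.07 ± 0.11, Pdhb, of pyruvate dehydrogenase, by 1.15 ± 0.10 and 1.00 ± 0.10, and Cs, citrate synthase, by 0.77 ± 0.098 in both. Sucla2, of succinyl-CoA ligase, rose by 0.26 ± 0.064 in WT and missed the threshold without WT PBS replicate 2 (adjusted p = 0.0706), when its probe sets were averaged (0.958) and with only the WT arrays in the fit (0.0611). In KO and GS 0 of 15 were called, with 4 and 2 at an unadjusted p under 0.05. The Idh3a response differed from that in WT in KO and GS (adjusted p = 9.07e-07 and 6.54e-07). So did that of Pdhb (0.000193 and 0.000299), and that of Cs differed in GS (0.00649). These were called in every fit run. Sdha to Sdhd, the cycle's own members in the respiratory chain, are described above.

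Among 20 regulators of mitochondrial biogenesis, 4 rose in WT and 3 rose and 1 fell in Y147F. Ppargc1b, a coactivator of the PGC-1 family, rose by 1.07 ± 0.13 and 0.99 ± 0.13. Ppargc1a rose by 0.51 ± 0.14 in Y147F (adjusted p = 0.0225) and differed by 0.40 ± 0.14 in WT (adjusted p = 0.0811). The Y147F call of Ppargc1a was lost without Y147F PBS replicate 3 (0.116) and T3 replicate 1 or 3 (0.0605 and 0.0806). Esrra, which encodes ERRα, rose by 0.31 ± 0.075 in WT (adjusted p = 0.00807), with a loss of the call without WT PBS replicate 1 (0.0659), and differed by 0.17 ± 0.075 in Y147F. Polg2 and Tfb2m, of the replication and transcription of mitochondrial DNA, rose by 0.40 ± 0.078 and 0.42 ± 0.091 in WT. Polrmt, the mitochondrial RNA polymerase, rose by 0.24 ± 0.057 in Y147F, and in the same genotype the transcription factor gene Yy1 fell by 0.36 ± 0.093. Yy1 missed the threshold without Y147F PBS replicate 3 (0.0646) or T3 replicate 1 (0.113), with averaged probe sets (0.794) and with only the Y147F arrays in the fit (0.101), where Polrmt also missed it (0.120). Ppargc1a in Y147F also missed it with array weights (0.0644), and Esrra in WT with only the WT arrays (0.0616). Nrf1 differed by -0.071 in WT and -0.0096 in Y147F, Gabpa by 0.14 and -0.12, and Tfam by 0.16 and 0.19, none of them called. In KO and GS 0 of 20 were called, with 3 and 1 at an unadjusted p under 0.05. The Ppargc1b response differed from that in WT in KO (adjusted p = 0.0189) and GS (0.0185), and that of Polg2 in GS (0.0495). Fits that left out an array kept these calls in 9, 11 and 3 of 12.

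Of 76 genes of the mitochondrial ribosome, which translates the subunits encoded by mitochondrial DNA, 9 rose in WT and 0 fell, and 6 rose and 2 fell in Y147F. Mrpl47 rose in both genotypes, by 0.64 ± 0.078 and 0.50 ± 0.078, and Mrpl12 rose by 0.37 ± 0.054 in WT. In Y147F Mrpl15 fell by 0.35 ± 0.073 and Mrpl17 fell by 0.30 ± 0.060. Averaged over its probe sets, Mrpl17 differed by 0.0018 (adjusted p = 0.994). With only the Y147F arrays in the fit neither Mrpl17 (0.0779) nor Mrpl15 (0.0501) was called. In KO and GS 0 of 76 were called, with 15 and 22 at an unadjusted p under 0.05, against the same 10.4% and 7.0% of all genes. The Mrpl47 response differed from that in WT in KO and GS (adjusted p = 0.0461 and 0.0233), that of Mrpl12 in KO (0.0287) and that of Mrpl17 in GS (0.0193). With averaged probe sets the Mrpl47 calls (0.799 and 0.432) and the Mrpl17 call (0.853) were lost. Of 12 fits that left out an array, 2 and 7 kept the Mrpl47 calls, 4 that of Mrpl12 and 8 that of Mrpl17. The medians of this list were 0.079, 0.084, 0.11 and 0.038 in WT, KO, GS and Y147F, beside 0.064, 0.072, 0.061 and 0.083 for the subunit genes.

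**Figure D5:**
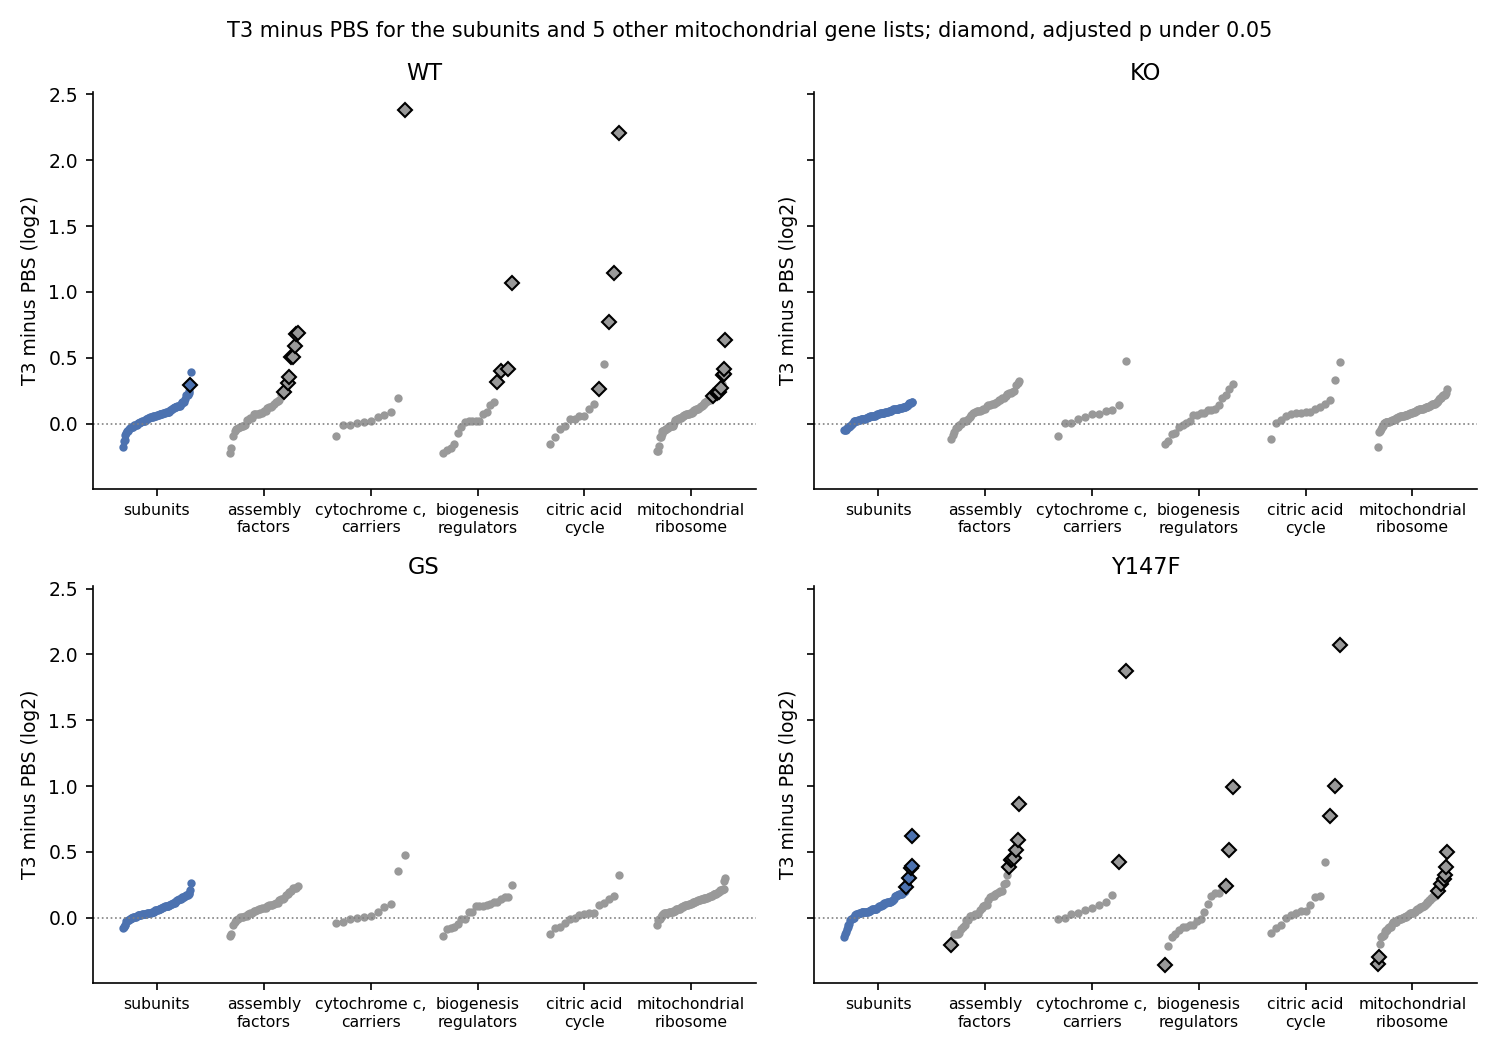
Log2 difference T3 minus PBS of the 79 subunit genes (blue) and of 5 other mitochondrial gene lists (grey), 1 panel per genotype; each point is a gene, in order of its value, and diamonds mark an adjusted p under 0.05. In WT and Y147F the highest points are Gpd2 and Idh3a at about 2, and in KO and GS no point is called.

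Without T3, the other lists held calls of both directions, beside 6.87% of all genes called in KO and 2.95% in GS. Only some of those called in KO are named. In KO, Gpd2 was higher than in WT by 1.45 ± 0.14, Idh3a by 0.74 ± 0.11, Pdhb by 0.45 ± 0.10, Coa5 by 0.40 ± 0.068 and Cycs by 0.26 ± 0.072, whereas Ppargc1a was lower, at -0.69 ± 0.14, as were Ndufaf7 (-0.33 ± 0.078), Mrpl23 (-0.40 ± 0.070) and Mrpl15 (-0.32 ± 0.073). In GS, Gpd2 was higher by 1.41 ± 0.14, Idh3a by 0.69 ± 0.11 and Coa5 by 0.42 ± 0.068. Atpaf1, Cox19, Sucla2, Mrpl17 and Mrpl23 were also called in GS, with adjusted p of 0.0115, 0.0264, 0.02065, 0.0254 and 0.0435. They kept the call in 4, 2, 3, 0 and 1 of the 6 fits that left out an array. Pdhb lost its KO call without WT PBS replicate 2 (adjusted p = 0.0595) or KO PBS replicate 2 (0.0653). Cycs lost it without WT PBS replicate 1 or 2 (0.146 and 0.0597) or KO PBS replicate 2 or 3 (0.0997 and 0.107). Mrpl15 lost it without WT PBS replicate 2 or 3 (0.0583 and 0.0509). With averaged probe sets Pdhb and Cycs lost it too (0.129 and 0.0807). With only the groups compared it was lost for Pdhb (0.0761), Cycs (0.133), Mrpl15 (0.111), Ppargc1a (0.0614) and Ndufaf7 (0.0508).

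Markers of other liver cells were read beside the subunit genes. The hepatocyte markers differed with T3 by medians of 0.0028, -0.012, -0.033 and 0.0029 in WT, KO, GS and Y147F. Those of sinusoidal endothelial cells were lower with T3 in every genotype, with medians of -0.23, -0.16, -0.22 and -0.15, though none of the 7 was called. Their mean ran from 9.32 to 9.36 with T3 and 9.54 to 9.61 with PBS in WT, from 9.16 to 9.50 and 9.46 to 9.52 in KO, from 9.25 to 9.43 and 9.53 to 9.58 in GS, and from 9.38 to 9.58 and 9.59 to 9.74 in Y147F. The medians of 7 Kupffer cell markers were -0.22, -0.24, 0.23 and -0.26, also with 0 called. Their mean ran from 8.77 to 9.01 with T3 and 8.94 to 9.13 with PBS in WT. In KO it ran from 8.90 to 9.225 and 9.18 to 9.32, in GS from 9.00 to 9.87 and 9.04 to 9.19. In Y147F it ran from 8.94 to 9.06 and 8.80 to 9.83. Stellate cell markers had medians of -0.0092, -0.21, 0.073 and -0.032, with 0 called. Cholangiocyte markers had medians of -0.24, -0.22, 0.010 and -0.086, with 0 called. The part of these shifts in the small positive differences of the subunit genes was not tested.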

How the data were processed

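Liver RNA, 200 ng per array, was measured on 24 Affymetrix arrays with 45101 probe sets, 3 per group. The authors deposited log2 intensities summarised with RMA, per the submitters' processing notes, and the version of RMA was not stated there. The 6 deposited Y147F columns came without a decimal mark, which was put back so that log2 values lay from 3 to 16, and 775 cells (0.286%) that a spreadsheet could have turned into dates were left missing. The same rule, applied to damaged copies of 18 intact columns, returned 810856 values, with 0 wrong. No table column was left unused.

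Of the probe sets, 34958 had 1 symbol in the platform annotation, 932 several and 9211 none. Only the first were used, each gene by its brightest probe set over all arrays. Tests were run on genes at or above the 40th percentile of the array's signals on 3 or more arrays. In R 4.3.3, limma 3.58.1 fitted 8 group means to all 24 arrays with lmFit and eBayes (16 residual and 4.28 prior degrees of freedom), and 10 contrasts were tested two-sided with Benjamini-Hochberg adjustment over the genes of a contrast. An exact permutation of 3 against 3 arrays cannot go below p = 0.1 and was not used. The fit was tested on simulated data. Nothing says that the arrays came from separate litters or cages, so p-values measure the spread between these arrays, and their number limits the precision.

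The subunit genes, the other gene lists and the markers were chosen with earlier results of these data known. Subunit genes named were up to 12 called each way per T3 response and 8 per other contrast, and the 3 smallest p where none was called. Added to these were the extremes of signal, all genes that failed the filter, tissue-restricted isoforms and complex II. From each other list, genes were drawn from up to 4 called per contrast, and not all of these are printed. Named in any case were 8 further genes of those lists, and Thrb and Dio1 as checks. Promoters came from RefSeq and protein sequences were not used here. Alternatives were quantile normalisation, other filters, averaged probe sets, robust moderation with a variance trend, smaller fits, array weights and leaving out each array.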

Additional observations from a re-analysis of the deposited data

Results flagged for a closer look

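Atp5g2, 1 of the genes of the subunit c ring of the ATP synthase, drew attention because every T3 array lay above every PBS array in GS and below in Y147F. The difference was 0.081 in GS and -0.144 in Y147F, where 1 T3 array was missing, and neither was called. The contrast between these 2 genotypes was not tested. In WT, Atp5g2 went from 12.11, 12.16 and 12.15 to 12.12, 12.02 and 12.12, and in KO from 12.09, 12.11 and 12.17 to 12.12, 12.20 and 12.12.

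Probe sets that match several symbols, 9 of them with a subunit symbol, were left out of the comparisons. They were searched only for rises, so falls are not listed. Among all genes tested, every T3 array lay above every PBS array for 12.5% in WT, 7% in KO, 7.31% in GS and 12% in Y147F. Some of these probe sets showed T3 arrays entirely above PBS arrays. The probe set shared by Ndufa11 and Ndufa11b did so in WT, by 0.15, and in Y147F, by 0.142. That of Ndufs5 and its pseudogene did so in Y147F by 0.113, and that of Ndufs6 and Ndufs6b in Y147F by 0.145. A dim probe set shared by Yjefn3 and Ndufa13, at a mean of 5.04, did so in GS by 0.248. Which of the named genes these signals come from cannot be told apart.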

How the results depend on the processing

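The median difference of the subunit genes kept its sign under every alternative run in 6 of 10 contrasts, the T3 responses of all 4 genotypes and both comparisons of Y147F with WT. In the other 4 the median was near 0 and took either sign: it ran from -0.035 to 0.0048 for KO minus WT in PBS, from -0.0089 to 0.036 for GS minus WT in PBS, and from -0.0045 to 0.040 and -0.031 to 0.025 for the difference of response of KO and GS from WT. No subunit gene was called for T3 in KO, T3 in GS or the 3 differences of response under any of them. The count for T3 in WT, 1, became 2 with quantile normalisation, the 60th percentile filter, the 18 arrays of WT, KO and GS alone, and array weights, 3 with the mean of probe sets and with the variance trend, and 0 without a filter and with only the groups compared. It ran from 0 to 3 when each array was left out. The count for T3 in Y147F, 5, became 8 with the variance trend and with array weights and 2 with only the groups compared, and ran from 2 to 6 without each array. KO minus WT in PBS, 4, became 2 without a filter and with the mean of probe sets and 0 with only the groups compared, and ran from 0 to 2. GS minus WT in PBS, 1, became 2 with the 60th percentile filter, the variance trend and array weights, 0 with only the groups compared, and ran from 0 to 1. Y147F minus WT in PBS, 0, became 2 with array weights and ran from 0 to 1. For Mrpl17, which fell with T3 in Y147F, the mean of its probe sets gave 0.0018. The causes were not tested, apart from the smaller fits, which hold fewer arrays. Signals under the 40th percentile, such as those of Ndufb4 and Cox7b2, limit what could be read. No paired analysis was possible because the labels give no shared replicate numbers; replicates were numbered in accession order.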
